A study of Mus musculus with 6 samples.

Results

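The genes described here build the cilium: the subunits of intraflagellar transport, the BBSome, the transition zone, the ciliary motors, and proteins of the ciliary membrane, the basal body and the motile axoneme. A list of 54 symbols was used, and a gene was kept when its mean count over the 6 libraries was at least 10. This left 53 of the 54 genes, out of 55536 genes in the deposited table. Cc2d2a, a transition zone gene, was left out at a mean count of 4.33, and the nearest genes kept were Ift81 at 12.3 and Bbs7 at 25.0. The members were chosen by gene name with the DSF against DMSO changes of these libraries already known, and selected on their mean count, so the shares given below describe these genes and are not independent evidence for them.

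The cells were primary OT-I T cells from mouse lymph nodes, of a genotype labelled wildtype, and OT-I animals carry a transgenic receptor that recognises an ovalbumin peptide on class I molecules. One group of 3 libraries was treated with disulfiram (DSF), a thiuram disulfide that inhibits aldehyde dehydrogenases, and the other group of 3 with the solvent dimethyl sulfoxide (DMSO), both for 2 h. The labels used here give no drug concentration, no stimulus, no age and no sex, and while they speak of biological replicates, no animal or culture is named for any of them. A p-value here thus reflects only how far these libraries spread, which may be technical. The study asked what DSF does to T cell activation, and the comparison asked which transcripts differed after the treatment.

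A cilium is a microtubule rod, the axoneme, that grows from a centriole docked at the cell surface and is enclosed by its own membrane. Cargo travels along it on intraflagellar transport (IFT) trains, outward with the IFT-B complex and kinesin-2 and back with the IFT-A complex and dynein-2. The BBSome carries membrane proteins on these trains, and the transition zone at the base is the gate that controls what enters. Mature T cells are generally described as having no primary cilium, but IFT proteins have been found to take part in receptor traffic to the immune synapse. Motile cilia, which beat, use additional proteins that are normally made in ciliated epithelia and sperm. In mammals many genes of the cilium are targets of the RFX transcription factors, which bind a sequence called the X-box.

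The libraries held between 18082178 and 21893653 counts, and levels are given as counts-per-million units (CPM). A floor of 3 counts came to 0.137 to 0.166 CPM. The direction of each change assumes that the group code DO in the deposited files stands for DMSO and DF for DSF. Markers of the labelled cell type were abundant, with 7 T cell genes summing to 2170 to 2230 CPM in DMSO and 1950 to 2000 CPM in DSF, and 4 of the 7 (Cd3g, Cd8a, Trac and Trbc2) were lower with DSF. Markers of ciliated epithelium summed to 20.3 to 24.4 CPM in DMSO and 23.6 to 25.6 CPM in DSF over 7 genes, none of which was at 0 in all libraries. Most of that sum came from Cfap43, at 19.7 ± 1.76 and 21.6 ± 1.94 CPM, while Mcidas, Dnah5, Dnaic1 and Tekt1 had at most 2 counts in a group. Foxj1, the master regulator of motile cilia, was at 0.727 ± 0.616 and 1.28 ± 0.739 CPM (edgeR's adjusted p = 0.615). Markers of B cells summed to 30.1 to 33.6 and 29.4 to 32.5 CPM over 5 genes, of myeloid cells to 52.8 to 54.9 and 48.4 to 52.3 CPM over 6, and of stroma and endothelium to 34.0 to 39.3 and 33.4 to 39.7 CPM over 8. Mpeg1, a macrophage gene, was lower (15.5 to 13.1 CPM, edgeR's adjusted p = 0.042), though no longer on omitting DMSO library 1, DMSO library 3, DSF library 1 or DSF library 3 (adjusted p = 0.0826, 0.177, 0.0603 and 0.246). Epithelial markers summed to 8.18 to 9.05 and 9.25 to 12.0 CPM over 5 genes. Among them Epcam passed edgeR's test with libraries that overlapped (6.94 and 8.76 CPM on average, adjusted p = 0.046), which was lost on leaving out DMSO library 1, DMSO library 3, DSF library 2 or DSF library 3 (adjusted p = 0.141, 0.108, 0.115 and 0.251). The part of such cells in the results was not tested. In bulk RNA, a change in the number of cells of a type and a change in RNA per cell cannot be told apart.

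Most of the cilium genes were higher with DSF and none was lower. By edgeR's quasi-likelihood test at a Benjamini-Hochberg adjusted p under 0.05, taken over all 14318 genes tested, 36 of the 53 were higher, against 11.6% of all genes tested. None was lower, against 11.3% of all genes. At an unadjusted p under 0.05 the counts were 37 higher and 0 lower, against 16.1% and 16.2% of all genes. DESeq2 called 30 higher and 0 lower, against 1326 higher and 1222 lower among the 14318 genes. The median log2 fold change over the 53 genes was 0.37, against -0.00 over all genes tested, and 50 of the 53 values were above 0. In 40 of the 53 genes every DSF library lay above every DMSO library, which was so for 17.6% of all genes, and in 0 genes every DSF library lay below, against 17.9% of all genes. A rise of at least 0.5 on the log2 scale was seen in 21 of the 53 genes, against 3.4% of all genes, and a rise of at least 2-fold in 8, against 1.49%. The filter on low counts asked for at least 0.503 CPM, before scaling, in 3 libraries. Tub, Lrrc23, Enkur and Spag6l met this only through the DSF libraries, so whether these 4 were tested depended on those libraries. The level was met in 2 DMSO libraries for Tub and Enkur, in 1 for Lrrc23 and in 0 for Spag6l. Lrrc23 and Spag6l could thus hardly have entered the test without being higher. Leaving them out, a step chosen after the data were seen, 32 of 49 genes were higher, 0 were lower and the median was 0.35. In 36 of these 49 genes every DSF library lay above every DMSO library. A rise of at least 0.5 on the log2 scale was then seen in 17, and of at least 2-fold in 4. Without any filter on low counts all 36 calls were kept.

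The changes were described by class. The median log2 fold change was 3.01 over the 5 motile cilium genes, but 0.54 over the 2 that did not need the DSF libraries to pass the filter. It was 1.33 over the 4 genes of the ciliary membrane and shaft, or 0.84 over 3 without Tub, and 0.52 over the 5 basal body and centriole genes, and all of these 14 genes were higher. The median was 0.42 over the 5 IFT-A genes, 0.37 over the 9 transition zone genes, 0.35 over the 7 BBSome genes, 0.29 over the 5 motor genes and 0.19 over the 13 IFT-B genes. Of these 39 genes, 22 were higher and 17 did not pass. Across the 53 genes the DMSO level in CPM and the log2 fold change had a Spearman correlation of -0.31, and of -0.14 over the 36 genes of at least 5 CPM in DMSO. Both values come from the same 6 libraries and describe these genes only. The 53 genes lie on 17 chromosomes, and 50 of them carry a Gene Ontology term in the deposited annotation that names the cilium. Of 365 other tested genes with such a term, 86 (23.6%) were higher and 17 lower, at a median of 0.08. Among all genes tested 11.6% were higher and 11.3% lower. Exon bases are shared with another annotated gene in 8 of the 53, on the opposite strand for Bbs4, Cep290, Ift57, Ift88, Tctn1 and Tub and on the same strand for Ttbk2 and Wdr90. Whether counting used the strand is not stated, so the counts of the genes with an overlap on the opposite strand are uncertain to that extent. For Ttbk2 and Wdr90 counting by strand would not separate the shared bases, so their counts are uncertain in either case.

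**Figure D1:**
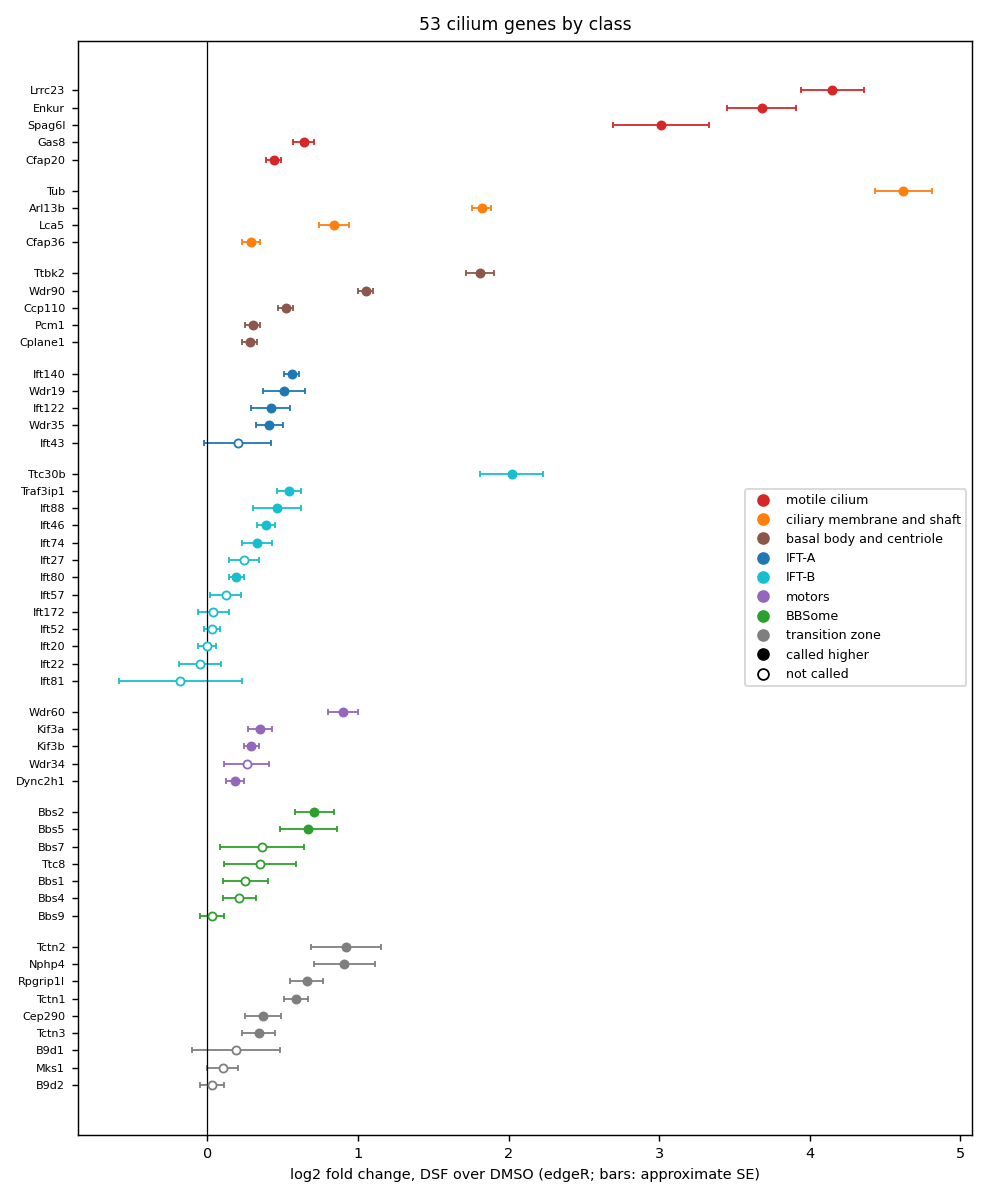
Log2 fold change of DSF over DMSO for the 53 cilium genes (x axis), 1 gene per line (y axis), by class, with bars for the approximate standard error; filled points passed edgeR's test and open points did not. The motile, membrane and basal body genes lie to the right of 0 without exception, and the IFT-B genes spread from -0.18 to 2.02.

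**Figure D2:**
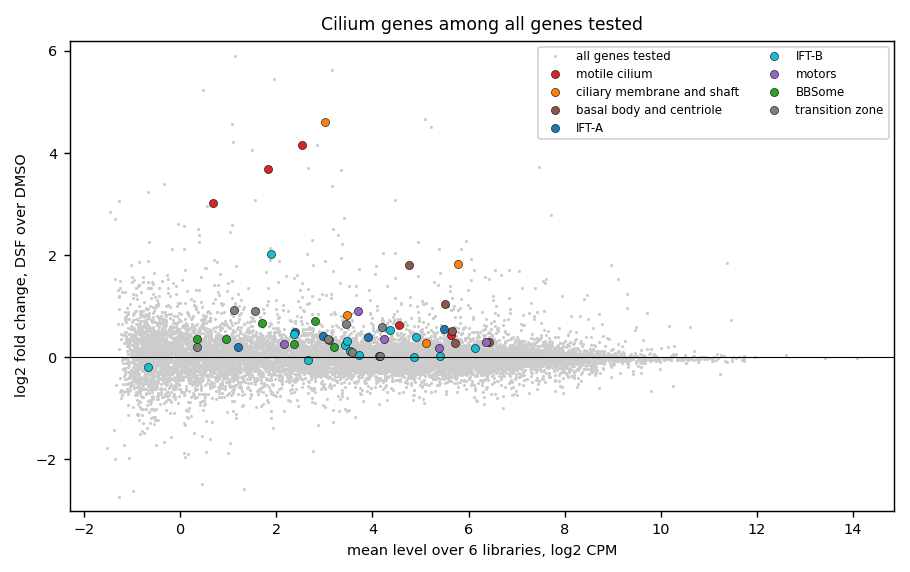
Log2 fold change of DSF over DMSO (y axis) against the mean level in log2 CPM over 6 libraries (x axis) for all genes tested (grey) and the cilium genes (coloured by class); 1 gene of the whole table lies outside the axes. The 5 cilium genes with the largest rises, Tub, Lrrc23, Enkur, Spag6l and Ttc30b, lie at low levels, while Arl13b, Ttbk2 and Wdr90 are of middling level.

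The promoters of the cilium genes were searched for the letters of the X-box. The letters themselves were not used to choose the genes. Many cilium genes are known RFX targets, however, so the shares of the 53 describe cilium genes and not an effect of DSF. RefSeq promoter windows of GRCm38.p6, each with 250 bases before and 50 bases after the annotated start, were found for 48 of the 53 genes. One arm of the X-box, GTTGCC, searched on both strands, was present in 28 of the 48 (58.3%), against 14.8% of the 10132 tested genes with a window and 12.5% of all 32851 windows. A looser pair of arms, GTNNCC followed after 0 to 3 bases by GGNNAC, which reads the same on both strands and can contain the single arm, was present in 15 of the 48 (31.2%), against 5.63% of tested genes and 3.86% of all windows. Among the genes that were higher with DSF, 20 of 32 (62.5%) held the arm GTTGCC and 9 of 32 (28.1%) the pair. Among those that did not pass, 8 of 16 held the arm and 6 of 16 (37.5%) the pair. Of all 1274 genes with a window that were higher with DSF, cilium genes included, 18.7% held the arm and 10.5% the pair. Differences between these shares were not tested. In all, 4 sets of letters were searched. The stricter pairs, GTTNCC with GGNAAC at the same spacing and a pair in which 1 of the arms may be loose, were present in 5 (10.4%) and 13 (27.1%) of the 48 genes, against 1.01% and 3.39% of tested genes. A match describes the letters in the window and not a bound site.

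Stretches of 60 bases are shown for the 11 genes that rose at least 1.5-fold and hold a match, out of 16 such genes with a window, and, for comparison, for Bbs7 and Mks1, which hold a pair and did not pass the test. Each is given 5′ to 3′ on the strand of its gene with the matched letters in capitals. Lrrc23 (minus strand, chr6:124779856-124779915) has a pair 164 bases before its start, and Enkur (minus, chr2:21205367-21205426) has a single arm 34 bases before. Spag6l (minus, chr16:16829314-16829373) has a pair 34 bases after its start. Gas8 (plus, chr8:123518710-123518769) has 3 arms, the first of them 98 bases before its start, and Bbs5 (plus, chr2:69647161-69647220) has an arm 42 bases after. Lca5 (minus, chr9:83441123-83441182) has a pair 60 bases before one of its RefSeq starts and 32 before the other, and Tctn2 (plus, chr5:124598664-124598723) has one 62 bases before. Arl13b (minus, chr16:62847189-62847248) has a single arm 181 bases before its start. Wdr90 (minus, chr17:25861637-25861696) has 2 arms, the first of them 154 bases before its start. Nphp4 (plus, chr4:152477892-152477951) and Tctn1 (minus, chr5:122264411-122264470) have pairs 231 bases before and 36 bases after. That of Nphp4 stands before a RefSeq start inside the gene, and the other two windows of Nphp4, including the one at the start of the gene, held no match. Bbs7 (minus, chr3:36613474-36613533) and Mks1 (plus, chr11:87853168-87853227) have pairs 121 and 24 bases before. The windows of the remaining 5 genes with such rises, Tub, Ttbk2, Wdr60, Bbs2 and Rpgrip1l, held no match, and that of Tub (chr7:109010630-109010929) surrounds a RefSeq start inside the gene.
Lrrc23: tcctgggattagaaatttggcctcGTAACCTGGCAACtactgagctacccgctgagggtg
Enkur: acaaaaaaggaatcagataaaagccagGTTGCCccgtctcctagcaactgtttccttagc
Spag6l: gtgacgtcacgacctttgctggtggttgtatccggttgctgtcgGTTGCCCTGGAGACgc
Gas8: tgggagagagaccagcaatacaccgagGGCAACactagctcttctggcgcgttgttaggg
Bbs5: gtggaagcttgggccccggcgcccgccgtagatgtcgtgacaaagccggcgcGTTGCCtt
Lca5: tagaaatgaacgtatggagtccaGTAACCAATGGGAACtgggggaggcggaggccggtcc
Tctn2: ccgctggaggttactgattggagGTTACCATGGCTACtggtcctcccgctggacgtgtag
Arl13b: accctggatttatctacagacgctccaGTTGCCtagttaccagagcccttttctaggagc
Wdr90: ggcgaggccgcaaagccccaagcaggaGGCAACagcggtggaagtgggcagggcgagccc
Nphp4: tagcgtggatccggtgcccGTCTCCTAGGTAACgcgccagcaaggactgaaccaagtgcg
Tctn1: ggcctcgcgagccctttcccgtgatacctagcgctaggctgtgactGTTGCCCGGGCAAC
Bbs7: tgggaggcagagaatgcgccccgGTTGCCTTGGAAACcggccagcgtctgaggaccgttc
Mks1: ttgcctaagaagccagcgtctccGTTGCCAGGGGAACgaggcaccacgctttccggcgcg

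The motile cilium genes of the 53 that were low in DMSO, Lrrc23, Enkur and Spag6l, showed large rises. These genes passed the count filter only through the DSF libraries, so low DMSO levels with large rises follow in part from the selection. Of 21 other motile cilium genes tested 10 were higher and 11 were not called. Among those not called were Tekt2 (0.665 and 0.722 CPM in DMSO and DSF) and Cfap57 (0.68 and 0.735 CPM), also low in DMSO. Lrrc23 (ENSMUSG00000030125, GRCm38 chr6:124769863-124779727), which encodes a protein of the radial spokes that regulate beating, was at 0.487, 0.864 and 0.445 CPM in DMSO libraries 1, 2 and 3 and at 10.9, 9.26 and 12.6 CPM in DSF libraries 1, 2 and 3. It rose 17.8-fold (log2 fold change 4.15 ± 0.21 SE, edgeR's adjusted p = 1.63e-16). Every DSF library stood far above every DMSO library. Enkur (ENSMUSG00000026679, chr2:21180731-21205365), the gene of the adaptor enkurin, was at 0.541, 0.637 and 0.346 CPM in DMSO and 7.48, 5.83 and 6.58 CPM in DSF, and rose 12.8-fold (3.68 ± 0.23, adjusted p = 3.59e-14 by edgeR). Spag6l (ENSMUSG00000022783, chr16:16753016-16829456), for a protein of the central pair of microtubules, was at 0.433, 0.409 and 0.198 CPM in DMSO, 21 counts in all, and at 2.49, 3.53 and 2.5 CPM in DSF. It rose 8.08-fold (3.01 ± 0.32, edgeR's adjusted p = 8.7e-09), and no library of one group reached the other.

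The remaining motile cilium genes of the 53 were already well expressed and rose less. Gas8, which encodes a subunit of the nexin-dynein regulatory complex that links neighbouring microtubule doublets, was at 18.6, 17.4 and 19 CPM in DMSO and 27.6, 28.1 and 29.9 CPM in DSF (1.56-fold, 0.64 ± 0.07, edgeR's adjusted p = 1.44e-08). Cfap20, for an inner-junction protein of the doublets, was at 40.7, 43.4 and 42.4 CPM in DMSO and 58.7, 58.3 and 55.2 CPM in DSF (1.36-fold, 0.44 ± 0.05, edgeR's adjusted p = 4.94e-08). The groups did not overlap in either gene.

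The 4 listed genes of the ciliary membrane and shaft were all higher, against 11.6% of all genes tested. They were chosen with the changes known. Of 10 other ciliary membrane genes tested 0 were higher, at a median log2 fold change of 0.02. Tub (ENSMUSG00000031028, chr7:108950338-109034460), the founding member of the tubby family that brings membrane receptors to cilia, was at 0.325, 0.91 and 0.593 CPM in DMSO and 16, 13.7 and 16.8 CPM in DSF. It rose 24.5-fold (4.62 ± 0.19, edgeR's adjusted p = 1.98e-18), on 38 counts in DMSO against 905 in DSF, the largest rise of the 53 genes. Of the exon bases of Tub, 14.4% also belong to Gm26599 or Ric3 on the opposite strand, which had 5 and 5 counts in DMSO and 43 and 6 counts in DSF, so reads of these genes cannot be assigned with certainty where strand was not used in counting. Arl13b (ENSMUSG00000022911, chr16:62793685-62847040), the gene of a small GTPase anchored in the ciliary membrane, was at 25.7, 22.2 and 25.1 CPM in DMSO and 89.2, 79.8 and 88.3 CPM in DSF (3.53-fold, 1.82 ± 0.06, edgeR's adjusted p = 6.14e-21). It shares no exon base with another annotated gene.

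Lca5, which encodes the ciliary shaft protein lebercilin, was at 8.01, 7.73 and 8.01 CPM in DMSO and 14.9, 13.6 and 14.1 CPM in DSF (1.79-fold, 0.84 ± 0.10, edgeR's adjusted p = 6.38e-08). Cfap36, a partner of the small GTPase ARL3, was at 32.5, 32.1 and 29.5 CPM in DMSO and 40.3, 35 and 39.6 CPM in DSF (1.22-fold, 0.29 ± 0.06, edgeR's adjusted p = 0.000826). Both genes had non-overlapping groups, with DSF library 2 the lowest of its group in each.

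**Figure D3:**
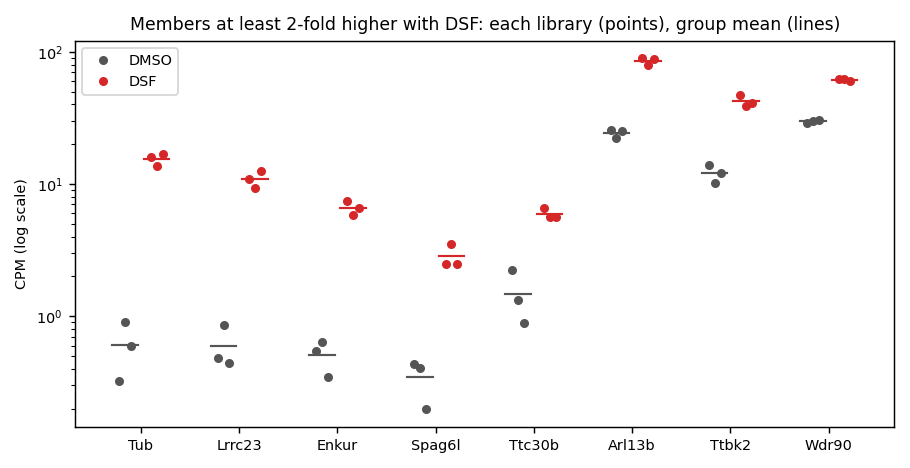
Level in CPM (y axis, log scale) of the 8 genes that were at least 2-fold higher with DSF (x axis), with 1 point per library and lines for the mean of 3 libraries. No DMSO library reaches a DSF library in any of the 8 genes. The genes were chosen by their rise in these same libraries, so this separation follows largely from the choice. Tub, Lrrc23, Enkur and Spag6l also passed the count filter only through the DSF libraries.

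All 5 listed genes of the basal body and centriole were higher, and of 18 other such genes 10 were. Ttbk2 (chr2:120732816-120850604), the kinase gene whose product starts cilium assembly at the mother centriole, was at 13.9, 10.2 and 12.1 CPM in DMSO and 46.7, 38.6 and 41.3 CPM in DSF, and rose 3.51-fold (1.81 ± 0.09, edgeR's adjusted p = 6.96e-12). It shares 29.9% of its exon bases with Cdan1 on the same strand. Cdan1 itself was at 48.5 ± 2.82 and 49.8 ± 1.38 CPM (mean ± SD, n = 3 per group, edgeR's adjusted p = 0.665). Wdr90 (chr17:25844771-25861501), for a protein of the centriole wall, was at 29, 29.8 and 30.4 CPM in DMSO and 62.5, 62 and 60 CPM in DSF (2.07-fold, 1.05 ± 0.05, edgeR's adjusted p = 1.4e-16). Libraries of one group lay within a few CPM of each other, and 0.9% of its exon bases are shared with Rhot2 on the same strand.

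Ccp110, which encodes the cap protein that is removed from the mother centriole before a cilium grows, was at 43.8, 38.5 and 42.5 CPM in DMSO and 60, 58.5 and 60.4 CPM in DSF (1.44-fold, 0.52 ± 0.05, edgeR's adjusted p = 4.04e-09). The centriolar satellite gene Pcm1 and the ciliogenesis gene Cplane1 rose less, from 77.3 ± 0.969 to 95.1 ± 4.48 CPM (1.23-fold) and from 47.2 ± 0.62 to 57.4 ± 1.01 CPM (1.22-fold). Library values of both genes stayed apart between the groups.

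Of the 5 IFT-A genes, for the complex that returns cargo to the base, 4 were higher. Ift140 was at 37.5, 37.2 and 34.3 CPM in DMSO and 53.8, 52.5 and 54.4 CPM in DSF (1.47-fold, 0.56 ± 0.05, edgeR's adjusted p = 6.37e-10). Wdr19, for the core subunit IFT144, was at 4.06, 4.78 and 4.1 CPM in DMSO and 5.93, 6.4 and 6.1 CPM in DSF (1.42-fold, 0.51 ± 0.14, edgeR's adjusted p = 0.0082). Both separated the groups without overlap. Wdr35, for a peripheral subunit, rose from 12.3, 13.2 and 13.4 CPM to 15.6, 17 and 18.8 CPM (1.32-fold) and Ift122 from 6.76 ± 1.15 to 8.98 ± 1.16 CPM (1.34-fold). The call of Ift122 ended without DMSO library 2 or DSF library 3 (edgeR's adjusted p = 0.17 and 0.148) and with DESeq2 (adjusted p = 0.0614). Ift43 was at 2.14 ± 0.479 and 2.47 ± 0.372 CPM (not called, edgeR's adjusted p = 0.584).

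IFT-B, the complex of outward transport, was split. Of its 13 genes, 6 were higher and 7 did not pass. Ttc30b (chr2:75935849-75938585), which encodes the subunit IFT70, was at 2.22, 1.32 and 0.89 CPM in DMSO and 6.54, 5.58 and 5.67 CPM in DSF (4.05-fold, 2.02 ± 0.21, edgeR's adjusted p = 1.98e-08). Its value is uncertain, since 44.4% of its 31-base words occur in other genes, with 38.7% of its words in Ttc30a2. Its other close relative Ttc30a1 went from 2.83 to 4.44 CPM (edgeR's adjusted p = 0.0125), which was lost on leaving out DMSO library 2, DMSO library 3 or DSF library 3 (adjusted p = 0.0951, 0.0747 and 0.0795). Traf3ip1, the gene of the microtubule-binding subunit IFT54, was at 16.9, 17.3 and 16.3 CPM in DMSO and 23.5, 23.4 and 26.6 CPM in DSF (1.46-fold, 0.54 ± 0.08, edgeR's adjusted p = 1.22e-06).

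Ift46, Ift80, Ift74 and Ift88 were the other IFT-B genes that passed. Ift46 rose from 26.0 ± 0.846 to 34.2 ± 0.662 CPM and Ift80 from 65.7 ± 0.97 to 74.9 ± 2.58 CPM. Ift74, a core subunit that binds tubulin, went from 9.78 ± 1.01 to 12.2 ± 0.601 CPM (edgeR's adjusted p = 0.0174), a call lost on leaving out DMSO library 2, DMSO library 3 or DSF library 3 (adjusted p = 0.101, 0.0598 and 0.095) and with DESeq2 (adjusted p = 0.0629). Ift88, which encodes polaris, went from 4.35 ± 1.01 to 5.95 ± 0.36 CPM (log2 fold change 0.46, edgeR's adjusted p = 0.0329). Its call was lost with DESeq2 (adjusted p = 0.101) and without DMSO library 2, where the log2 fold change was 0.27, or DSF library 1, 2 or 3 (edgeR's adjusted p = 0.277, 0.0712, 0.0527 and 0.128).

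Ift20, the subunit that also works at the Golgi and in receptor recycling to the T cell synapse, did not pass. It was at 28.1, 29.1 and 29.7 CPM in DMSO and 26.9, 29.5 and 30.5 CPM in DSF (1.00-fold, 0.00 ± 0.06, edgeR's adjusted p = 0.981), with overlapping groups. Ift52, at 42.0 ± 2.22 and 43.0 ± 0.875 CPM, and the peripheral subunit gene Ift172, at 13.1 ± 0.746 and 13.4 ± 2.12 CPM, did not pass either. The others that did not were Ift22, Ift27, Ift57 and Ift81, with log2 fold changes from -0.18 ± 0.41 to 0.24 ± 0.10 (SE). Ift81 had 40 counts in DMSO and 34 in DSF, so a small difference was not detectable there at this depth.

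Of the 5 motor genes, 4 were higher. Wdr60, for an intermediate chain of dynein-2, was at 8.34, 8.87 and 9.79 CPM in DMSO and 15.5, 17.9 and 17 CPM in DSF (1.87-fold, 0.90 ± 0.10, edgeR's adjusted p = 9.09e-09). Kif3b, a kinesin-2 motor subunit gene, was at 74.5, 72 and 74.8 CPM in DMSO and 92.4, 90.4 and 88.5 CPM in DSF (1.23-fold, 0.29 ± 0.05, edgeR's adjusted p = 9.41e-06). Its partner Kif3a rose from 16.5 ± 1.23 to 21.1 ± 0.803 CPM (1.28-fold). Dync2h1, the dynein-2 heavy chain gene, went from 39.0 ± 2.94 to 44.1 ± 1.77 CPM (edgeR's adjusted p = 0.0256). That call was lost with DESeq2 (adjusted p = 0.0781), without DMSO library 2, where the log2 fold change went from 0.18 to 0.11 (edgeR's adjusted p = 0.24), and without DSF library 1 or 3 (adjusted p = 0.11 and 0.0822). Wdr34, for the other intermediate chain of dynein-2, was at 4.08 ± 0.178 and 4.88 ± 0.388 CPM (not called, edgeR's adjusted p = 0.244).

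In the BBSome, the coat that carries membrane proteins on IFT trains, 2 of 7 genes were higher. Bbs2 was at 6.5, 4.55 and 4.9 CPM in DMSO and 8.48, 8.8 and 8.69 CPM in DSF (1.64-fold, 0.71 ± 0.13, edgeR's adjusted p = 0.000134). Bbs5, whose product binds phosphoinositides, was at 3.19, 2.09 and 2.23 CPM in DMSO and 4.49, 3.74 and 3.7 CPM in DSF (1.59-fold, 0.67 ± 0.19, edgeR's adjusted p = 0.00881). The call of Bbs5 ended without DMSO library 2 or DSF library 1 (adjusted p = 0.0676 and 0.0534). Bbs9, the most abundant of the 7 per length, was at 18.3, 16.5 and 17.5 CPM in DMSO and 17.9, 17.6 and 17.6 CPM in DSF, with overlapping groups (1.02-fold, 0.03 ± 0.08, edgeR's adjusted p = 0.865). Bbs1, Bbs4, Bbs7 and Ttc8 had log2 fold changes between 0.21 ± 0.11 and 0.36 ± 0.28 and did not pass.

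In the transition zone, 6 of 9 genes were higher, and these included all 3 tectonic genes. Tctn1 was at 14.8, 13.6 and 15.3 CPM in DMSO and 22.3, 21.1 and 22.5 CPM in DSF (1.51-fold, 0.59 ± 0.08, edgeR's adjusted p = 4.64e-07). It shares 25.5% of its exon bases with genes on the opposite strand, among them Hvcn1, which was lower with DSF (58.2 to 48.6 CPM, edgeR's adjusted p = 0.000406). Tctn2 was at 1.62, 1.27 and 1.58 CPM in DMSO and 2.88, 3.48 and 2.11 CPM in DSF (1.89-fold, 0.92 ± 0.23, edgeR's adjusted p = 0.00334). Tctn3 went from 7.57 ± 0.149 to 9.56 ± 0.615 CPM (1.26-fold, edgeR's adjusted p = 0.0246), a call lost with DESeq2 (adjusted p = 0.0872) and on leaving out DMSO library 2, DMSO library 3, DSF library 2 or DSF library 3 (adjusted p = 0.0757, 0.0565, 0.12 and 0.054).

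Among genes of the nephronophthisis module of the gate, Rpgrip1l was at 8.93, 7.41 and 9.3 CPM in DMSO and 12.4, 13.8 and 14.2 CPM in DSF (1.58-fold, 0.66 ± 0.11, edgeR's adjusted p = 1.34e-05). Nphp4 was at 2.38, 2 and 1.73 CPM in DMSO and 3.99, 3.12 and 4.37 CPM in DSF (1.88-fold, 0.91 ± 0.20, edgeR's adjusted p = 0.000679). Neither gene had overlapping groups. Cep290, for the protein that links microtubules to the membrane in the gate, went from 7.41 ± 0.851 to 9.53 ± 0.572 CPM (edgeR's adjusted p = 0.0198). The call of Cep290 was lost with DESeq2 (adjusted p = 0.0692) and on leaving out DMSO library 2, DMSO library 3, DSF library 1 or DSF library 3 (adjusted p = 0.0975, 0.0776, 0.0787 and 0.0621).

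The 3 genes of B9-domain proteins did not pass. B9d2 was at 18.2, 18.3 and 16.3 CPM in DMSO and 18, 17.2 and 18.7 CPM in DSF (1.02-fold, 0.03 ± 0.08, edgeR's adjusted p = 0.835). B9d1 was at 1.18 ± 0.367 and 1.36 ± 0.187 CPM and Mks1 at 11.5 ± 0.906 and 12.4 ± 0.391 CPM (edgeR's adjusted p = 0.709 and 0.526). The tectonics and the B9 proteins belong to the same complex of the gate, and whether their changes differed from each other was not tested.

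Levels between genes were compared in the deposited transcripts-per-million values (TPM), which are per length. Averaged over the 6 libraries, Ift20 was highest at 73.4 TPM, followed by Cfap20 at 57.3, Cfap36 at 38.2 and B9d2 at 31.8 TPM, and of these 4 genes only Cfap20 and Cfap36 passed the test. Ift81 was lowest at 0.453 TPM. Tub went from 0.393 ± 0.0493 to 4.70 ± 0.529 TPM, Lrrc23 from 0.577 ± 0.222 to 9.05 ± 0.71 TPM, and Arl13b from 9.84 ± 0.655 to 34.2 ± 1.9 TPM (mean ± SD, n = 3). In DSF, the mean of Tub stayed below the DMSO level of Arl13b and that of Lrrc23 was close to it. Differences between genes were not tested. The TPM and the counts went apart in a few genes. Wdr60 went from 3.65 ± 0.494 to 12.4 ± 5.19 TPM while its CPM rose 1.87-fold. Ttc8 went from 2.13 ± 0.76 to 1.55 ± 0.446 TPM while its CPM was 1.68 ± 0.525 and 2.17 ± 0.208, a difference that did not pass (edgeR's adjusted p = 0.347).

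**Figure D4:**
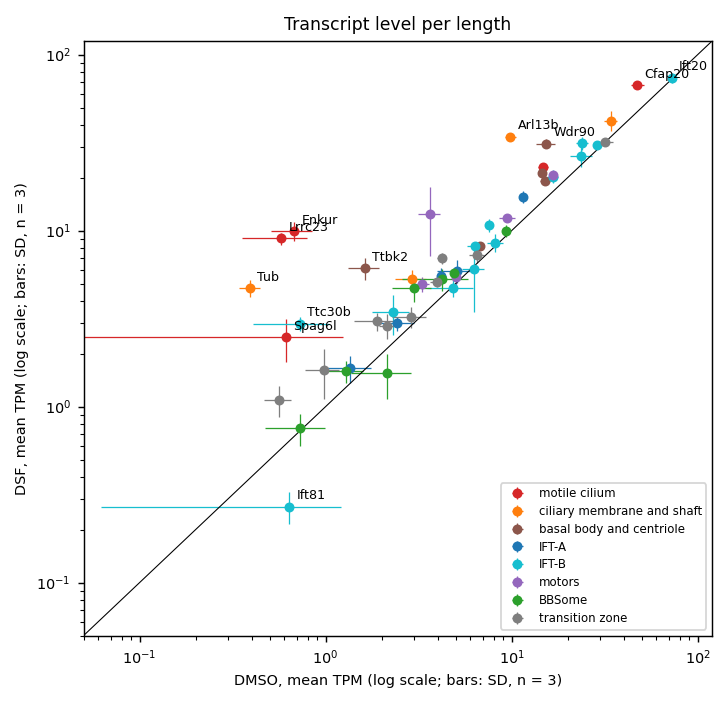
Mean TPM in DSF (y axis) against mean TPM in DMSO (x axis), both log scales, for the 53 cilium genes by class, with bars for the SD over 3 libraries, cut at the edge of the axes; the line marks equal levels. Ift20 lies on the line at the top of the range, and Tub, Enkur and Lrrc23 lie far above the line.

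Other structural genes of the cilium, from lists that leave out the 53, also included rises and no call in the other direction. These lists too were chosen with earlier results of these data known, so their counts are not independent evidence. Of 116 such genes 82 were tested, and 28 (34.1%) were higher and 0 lower by edgeR's test, against 11.6% and 11.3% of all genes tested. At an unadjusted p under 0.05 there were 32 (39.0%) and 1 (1.22%), against 16.1% and 16.2% of all genes. DESeq2 called 23 and 0, against 1326 and 1222 among all 14318 genes. Leaving out 5 genes that passed the filter only through the DSF libraries, 26 of 77 were higher and 0 lower. The median log2 fold change was 0.16 over the 82 genes and 0.15 over the 77. Of 21 other motile cilium genes tested 10 were higher, at a median of 0.46. Without those that passed the filter only through the DSF libraries 8 of 16 were higher, at a median of 0.4. Of 18 other basal body and centriole genes 10 were higher, at a median of 0.21. The remaining 28 motile genes of the list of 49 had too few counts to be tested.

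Efhb (chr17:53398889-53463321), which encodes an EF-hand protein of the doublet lumen, was at 0.217, 0.227 and 0.198 CPM in DMSO and 4.71, 3.12 and 4.42 CPM in DSF. It rose 18.5-fold (4.21 ± 0.31, edgeR's adjusted p = 2.35e-12) on 13 counts in DMSO against 238 in DSF. Efhb and Cfap45 passed the filter on low counts only through the DSF libraries. Cfap45, another lumen protein gene, rose 4.35-fold, from 0.217, 0.318 and 0.445 CPM to 1.33, 1.54 and 1.49 CPM. Stk36, a kinase gene needed for the central pair, rose 2.68-fold, from 1.03, 0.682 and 0.94 CPM to 2.38, 2.05 and 2.64 CPM. These genes, like Lrrc23 and Enkur, started under or near 1 CPM. Ccdc39, for a ruler protein of the axoneme, was at 1.46, 0.682 and 0.989 CPM in DMSO and 2.22, 1.48 and 2.74 CPM in DSF (2.08-fold, edgeR's adjusted p = 0.00755), and its call was lost without DMSO library 2 or DSF library 3 (adjusted p = 0.0638 and 0.0845).

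The other lists were for transport, the gate, motors and the membrane. Of 11 other IFT and BBS genes tested 4 (36.4%) were higher (Ttc26, Ttc30a1, Bbip1 and Lztfl1). Of 15 other transition zone genes 3 (20.0%) were higher (Tmem67, Tmem216 and Rpgr), and of 7 other motor genes 1 (14.3%), Kif3c. These names are given after their values were seen. Among all genes tested 11.6% were higher, and the share of the motor genes was near that. Lztfl1, which controls BBSome traffic, went from 25.3 to 41.2 CPM and Tmem67, the gene of the membrane receptor meckelin, from 12.1 to 19.2 CPM. The call of Rpgr ended when any library other than DMSO library 3 was left out (edgeR's adjusted p from 0.0538 to 0.0888). None of 10 other ciliary membrane genes passed edgeR's test, an unadjusted p under 0.05 or DESeq2, at a median of 0.02. The hedgehog pathway, which signals through the cilium, had 5 genes tested of 14, of which 0 passed edgeR's test, an unadjusted p under 0.05 or DESeq2, at a median of -0.03.

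Of 8 RFX factor genes 5 were tested, and 3 of these were higher, against 11.6% of all genes tested. This list too was chosen with earlier results of these data known. Rfx1 was at 40.7, 44.8 and 45.4 CPM in DMSO and 141, 141 and 146 CPM in DSF (3.27-fold, 1.71 ± 0.05, edgeR's adjusted p = 1.44e-22). Rfx2, at 1.3, 1.87 and 1.53 CPM in DMSO and 15.5, 15.6 and 17.5 CPM in DSF, rose 10.2-fold, and Rfx3, at 15.3, 15.6 and 15.8 CPM in DMSO and 71.2, 63.1 and 68.1 CPM in DSF, rose 4.34-fold. These 3 factors are known regulators of ciliary genes, as is Rfx4, which had 2 counts in DMSO and 3 in DSF and was not tested. Rfx5, known for class II antigen presentation genes, averaged 27.3 and 26.7 CPM, and Rfx7 averaged 195 and 190 CPM, and neither passed (edgeR's adjusted p = 0.766 and 0.517). The part of these factors in the rises of the cilium genes was not tested.

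The authors' deposited table also compares a group coded DC, which the labels do not explain and of which no library was analysed here. Its 3 comparisons share their groups, so the values are set side by side and are not independent of those above. For DF against DO, 28 of the 53 genes were higher and 0 lower at an adjusted p under 0.05 in the authors' deposited table. This was so for 4.47% and 4.08% of its 27139 genes tested. At an unadjusted p under 0.05 the counts of the 53 were 36 and 0. For DC against DF, 0 were higher and 28 lower in the authors' deposited table, against 3.18% and 3.94% of its genes. At an unadjusted p under 0.05 these counts were 0 and 31. For DC against DO, 1 was higher and 0 lower in the authors' deposited table, against 0.0779% and 0.267% of its genes. At an unadjusted p under 0.05 they were 3 and 0. The deposited shares are over more genes than the 14318 that passed the count filter here, as all 53 did. Of those 14318 genes, 11.6% were higher and 11.3% lower with DSF by edgeR's test. In the authors' deposited table the log2 fold changes of Tub were 4.64 for DF against DO, -4.64 for DC against DF and 0.03 for DC against DO. Those of Arl13b in the authors' deposited table were 1.82, -1.62 and 0.21 in the same order, and those of Enkur were 3.70, -3.46 and 0.26. The gene higher for DC against DO in the authors' deposited table was the IFT-A gene Ift140, at 0.56, -0.05 and 0.52 in that order.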

How the data were processed

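RNA was sequenced from 3 DMSO and 3 DSF samples, prepared with a SMARTER kit for mRNA, per the labels' protocols. Reads were placed on GRCm38 (mm10), as the submitters' processing notes name it. For the aligner, the counter and strandedness, the sources used here give no name. The authors deposited an expected count and a TPM per gene and library, per the file headers. They also deposited log2 fold changes, p-values and adjusted p-values in tables titled as DESeq2 output, per the file headers. The design had assumed whole counts. The deposited values are estimated counts, of which 12.1 to 12.9% per library were not whole, and they were rounded.

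Columns are named A and B with a number. Averaging the A columns gives the authors' mean TPM headed DO, and averaging the B columns that headed DF, in 55536 of 55536 genes within 0.0001 TPM. The reverse holds in 28853. That DO means DMSO and DF means DSF was taken from the letters, since the labels do not say it. All columns of libraries were used (0 unused).

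Genes were filtered with filterByExpr, scaled by TMM and tested in edgeR 4.0.16 (R 4.3.3) by its robust quasi-likelihood fit, two-sided, with group as the only term. A call is an adjusted p under 0.05 (Benjamini-Hochberg, 14318 genes). The script was tested on simulated data. Standard errors are approximate, from the log2 fold change and the F statistic, and CPM are scaled by TMM. Floors cover counting error only. Replicate libraries differed by more than counting error, at 2.22 to 4.28 times the chi-square that counting error gives per degree of freedom. Gene positions were read from GENCODE M21, which holds the 54 identifiers, and promoters from RefSeq.

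The genes, their classes and the other lists were chosen with earlier results of these data known. Values per library are given for called genes with a log2 fold change of at least 0.5 and for the most abundant gene and the gene with the smallest p of each class. Of each other cilium list, called genes with a change of at least 1 on the log2 scale are given, and of the RFX genes all that were tested. Alternatives were DESeq2 1.42.0, limma 3.58.1 with voom, other scalings and count filters, other minimum counts for a gene to be kept, a replicate block and leaving out each library.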

Additional observations from a re-analysis of the deposited data

Results flagged for a closer look

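Ift140, the IFT-A subunit gene, had a signal in a group outside the DSF against DMSO comparison. The authors' deposited table holds a group coded DC, which the labels do not explain and of which no library was analysed here. In the authors' deposited table the log2 fold change of Ift140 for DC against DO was 0.52 (adjusted p = 5.02e-09), beside 0.56 for DF against DO and -0.05 for DC against DF. It was the one cilium gene of the 53 past an adjusted p of 0.05 for DC against DO.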

How the results depend on the processing

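The number of cilium genes higher with DSF was 36 with DESeq2-type size factors, library totals, voom, other count filters and no minimum count, and 30 with DESeq2, with a minimum mean count of 100, and over the 45 genes that share no exon (added after the data were seen). It was 29 to 36 when 1 library was left out, and 0 were lower in every setting run. In every fit run 29 of the 36 calls were kept, and Bbs5, Cep290, Dync2h1, Ift122, Ift74, Ift88 and Tctn3 were lost in some. The median log2 fold change, 0.366, was 0.385 with at least 1 CPM in 3 libraries, 0.389 with voom and 0.352 over the genes that share no exon and also over the 49 genes that did not need the DSF libraries to pass the count filter (32 higher, added after the data were seen), and 0.358 to 0.417 when 1 library was left out. The sign of changes near 0 was not stable. Ift20 was at -0.00 with library totals, -0.02 without DMSO library 1, -0.00 without DSF library 2 and -0.03 without DSF library 3. Bbs9 was at -0.02 without DMSO library 2 and B9d2 at -0.02 without DMSO library 3. When 1 library was left out, their highest values were 0.06, 0.06 and 0.07. The cause was not tested. Over all genes, 1334 to 1595 were higher and 1231 to 1432 lower when 1 library was left out, and DESeq2 called 1326 and 1222.

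The replicate number as a block gave 36 higher and 0 lower cilium genes, and 1925 higher and 1904 lower over all genes, against 1655 and 1621 without it. Libraries with the same number had deviations that correlated at 0.045, 0.035 and 0.055, and no label says that a number marks a shared source, so the numbers were not used to pair libraries. Every library correlated best with the library of its own number, but these correlations were small. The deviations were taken from group means, so these matches are not independent of each other and no pairing is concluded from them.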
